A study of Mus musculus with 4 samples.

Results

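The neuronal immediate early genes examined here were *Fos*, *Fosb*, *Junb*, *Egr1*, *Egr2*, *Egr4*, *Arc*, *Nr4a1*, *Npas4* and *Ier2*. They were chosen by symbol, and all 10 were found among the 32285 genes of the count tables. The counts came from 4 Visium sections of fresh-frozen brain from Nf1+/- mice, which carry a germline inactivation of 1 copy of *Nf1*, the gene for the RAS regulator neurofibromin. All 4 sections had this genotype, the labels list no treatment, and wild-type tissue was not analysed here. The study asks how *Nf1* mutation changes the response of oligodendrocyte precursor cells (OPCs) to neuronal activity. The labels give neither the age nor the sex of the mice, nor what the mice did before the tissue was frozen, nor whether the 4 sections came from 4 mice. The p-values below therefore measure how far the differences between spot groups of the same section vary from section to section, which may be technical.

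Immediate early genes are transcribed within minutes of synaptic or growth factor stimulation, from transcription factors already present in the cell and without new protein synthesis. In neurons, calcium entry and the RAS-ERK cascade act on CREB, at cAMP response elements, and on serum response factor, at CArG boxes, in their promoters. Most of the 10 genes encode transcription factors that carry the response on to later genes, and *Arc* encodes a protein that acts at the synapse. Their mRNAs are short-lived, so that a level in frozen tissue reflects the period just before collection, and they are widely used to map which neurons were recently active.

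Each Visium spot is a barcoded area that captures polyadenylated RNA of the cells above it, often several cells of different types. RNA molecules are counted by unique molecular identifiers (UMIs). Spots with at least 500 UMIs were kept, which left 7620 spots, between 1431 and 2358 in a section. The sections held 19261710 to 37002379 UMIs in all, with a median of 8862.5 (section 3) to 15296.5 (section 2) UMIs per spot, and mitochondrial transcripts made up 13.7% to 15.6% of them. All pairs of sections differed by more than counting error (chi-square over its degrees of freedom ran from 14.5 to 55.4), so none was a repeat deposit of another, which does not show that they came from different mice. Pairs of sections shared 427 to 1989 spot barcodes, which are positions of the fixed Visium array and not shared cells.

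Spots were sorted by 2 genes. Cortical spots were those with at least 2.83 UMIs of *Slc17a7*, the vesicular glutamate transporter of cortical excitatory neurons, per 10000 UMIs. Striatal spots were those with at least 6.17 UMIs per 10000 of *Ppp1r1b*, which encodes the dopamine-signaling protein DARPP-32 of striatal projection neurons. The rest were the other spots, and the 25 to 66 spots of a section above both thresholds went to the gene they exceeded by more. Sections 1 to 4 held 437, 1123, 979 and 715 cortical spots, 558, 894, 711 and 330 striatal spots, and 542, 341, 604 and 386 other spots. All 8 cortical glutamatergic markers were higher in cortical than in other spots (median log2 fold change 2.18), and all 8 striatal projection neuron markers, such as *Drd1* and *Drd2*, were higher in striatal than in other spots (2.56). The other spots were richer in mature oligodendrocyte markers, with 6 of 6 lower in cortical spots (median −1.03) and 6 of 6 lower in striatal spots (−0.55). All 10 choroid plexus markers were also lower in cortical spots (−2.69) and in striatal spots (−1.82). Neuronal markers were not missing from the other spots: 3 of 3 GABAergic markers were lower in cortical spots (−1.49) and 1 of 3 in striatal spots (−0.17). Of 5 thalamic and other subcortical glutamatergic markers, 3 were lower in striatal spots (−1.54). Cortical spots had 2 of these 5 lower and 1 higher (−0.30). In cortical spots 8 of 8 OPC, 5 of 5 fibroblast and 4 of 4 ependyma markers were lower as well. Of 6 genes made by most neurons, chosen after the data had been seen, 6 were higher in cortical than in other spots (0.69), whereas 2 were higher and 3 lower in striatal spots (−0.14). In such sums, fewer cells of a type and less RNA per cell cannot be told apart.

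The promoters of these genes are shown first because such elements are known to couple these genes to activity. RefSeq promoter sequences (assembly GRCm38.p6, which is mm10, the build in the submitters' processing notes) were matched by symbol for 7 of the 10 genes. The 250 bases before each transcription start were searched on both strands for the cAMP response element TGACGTCA, for its core TGACG and for the CArG box. Windows that span the matches are printed below on the gene's own strand, 5′ to 3′. Capitals mark TGACG, its reverse complement CGTCA, and in *Egr2* also the CArG box CCATATATGG.
Fos (chr12:85473751-85473838, plus strand): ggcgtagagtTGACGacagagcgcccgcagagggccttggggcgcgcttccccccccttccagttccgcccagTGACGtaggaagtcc
Fosb (chr7:19310091-19310115, minus strand): gagttgcgggTGACGcaagcgcggg
Junb (chr8:84978840-84978864, minus strand): ttcctgacagTGACGcgagccgcct
Egr2 (chr10:67537748-67537828, plus strand): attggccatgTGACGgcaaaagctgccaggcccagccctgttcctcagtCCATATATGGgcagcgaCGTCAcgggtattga
Egr4 (chr6:85513684-85513776, minus strand): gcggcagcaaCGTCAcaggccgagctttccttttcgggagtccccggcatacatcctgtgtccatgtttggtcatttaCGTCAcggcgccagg
Nr4a1 (chr15:101266603-101266820, plus strand): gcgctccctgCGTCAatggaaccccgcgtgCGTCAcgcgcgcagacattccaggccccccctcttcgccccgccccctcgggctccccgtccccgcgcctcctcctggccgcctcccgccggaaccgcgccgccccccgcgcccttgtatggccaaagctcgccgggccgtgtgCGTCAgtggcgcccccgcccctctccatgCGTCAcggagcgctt
Npas4 (chr19:4990126-4990160, minus strand): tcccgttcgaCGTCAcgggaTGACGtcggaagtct

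The core TGACG was present in at least 1 promoter of each of the 7 genes. Of the 32851 promoters in the table, counted by start and not by gene, 17.8% held it. *Nr4a1* had 4 copies, *Fos*, *Egr4* and *Npas4* had 2 each, and *Fosb* and *Junb* had 1. *Egr2* has 5 listed starts, not all of which had the core, and the first with both kinds of element is shown. A gene with several starts has more chances of a match. The full element TGACGTCA was in 0 of the 7 windows and in 1.55% of all promoters. A CArG box was found in *Egr2* alone of the 7, and in 1.47% of all promoters. These matches are letters in a window and do not show that a factor was bound there. *Arc*, *Egr1* and *Ier2* are not shown.

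All 10 genes had their lowest level in section 1 when all spots of a section were added together. The share of all genes with their lowest level in section 1 was not counted, here or within spot groups. In CPM (UMIs scaled to a total of 1000000 per section or spot group), the 10 genes summed to 390.3, 722.8, 797.6 and 838.7 CPM in sections 1 to 4. The highest section exceeded the lowest by 1.80-fold (*Npas4*) to 4.96-fold (*Egr2*), with a median of 2.53-fold. In 8 of the 10 genes the ratio was at least 2-fold, whereas 4.64% of 12930 genes with a mean of at least 50 UMIs reached that ratio and their median ratio was 1.23. The 4 sections share 1 genotype and form 1 group, so that these differences were described and not tested.

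The ranking of the other sections was not the same for all genes. *Fos*, *Junb*, *Arc*, *Nr4a1* and *Ier2* were highest in section 4, *Fosb*, *Egr1*, *Egr2* and *Egr4* in section 3, and *Npas4* in section 2. Within cortical spots, 9 of the 10 genes were still lowest in section 1 (*Npas4* was lowest in section 3), and 9 of 10 reached 2-fold, beside 3.09% of 11466 genes. In striatal spots, 10 of 10 were lowest in section 1 and 6 of 10 reached 2-fold, beside 3.15% of 10548 genes. In other spots, 10 of 10 were again lowest in section 1, and the 6 genes with a mean of at least 50 UMIs all reached 2-fold, beside 5.86% of 9339 genes. With the 3 spot groups given equal weight, 10 of 10 remained lowest in section 1 and 8 of 10 remained at least 2-fold, with a median of 2.31-fold.

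Several other measures differed in section 1. Cortical spots made up 28.4% of its spots, the lowest share, and other spots 35.3%, the highest share. It held 189 spots with at least 3 of 10 choroid plexus markers, whereas sections 2, 3 and 4 held 4, 7 and 76. The 5 genes listed for heat shock and tissue handling summed to 268.6, 357.4, 359.4 and 277.6 CPM in sections 1 to 4, so that they were low in sections 1 and 4. Genes made by most neurons summed to 3397.5, 4192.1, 4113.7 and 4722.6 CPM, and in cortical spots alone to 5135, 5453, 5434 and 6160 CPM. The part of these measures in the level of the immediate early genes was not tested.

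**Figure D1:**
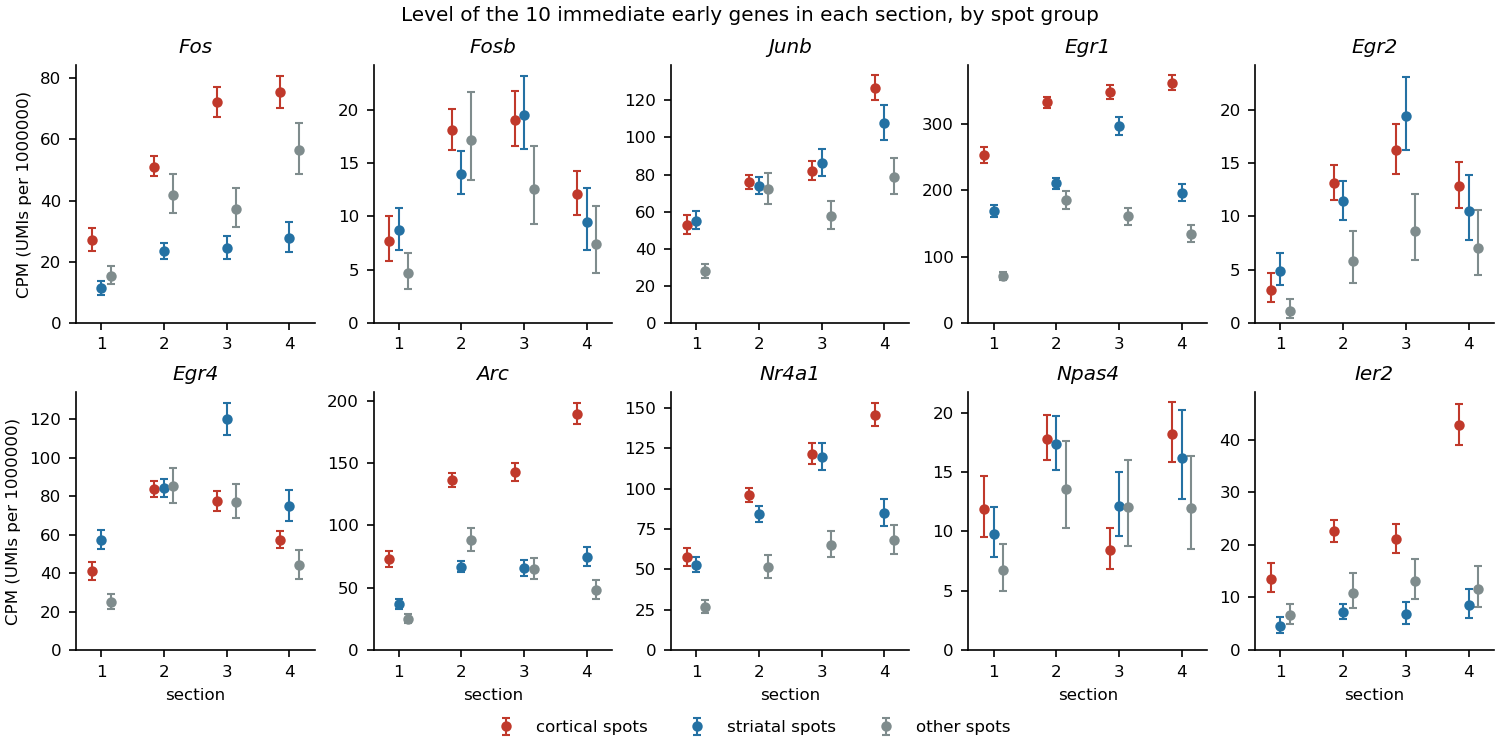
Level of each gene in sections 1 to 4 (horizontal axis, sections have no order) in CPM (vertical axis, from 0, with its own scale for each gene). Points are the cortical (red), striatal (blue) and other (grey) spots, and bars are exact 95% Poisson intervals, which cover counting error only. Section 1 is lowest for nearly every gene. *Fos*, *Egr1*, *Arc*, *Nr4a1* and *Ier2* are highest in cortical spots of every section, and *Egr4* is highest in striatal spots of sections 1, 3 and 4.

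A list of 49 other activity-regulated or primary response genes was set beside them. Of the 46 with a mean of at least 50 UMIs, 29 were lowest in section 1, and the median ratio was 1.57. In 9 of them the ratio reached 2-fold, beside 4.64% of 12930 genes. *Btg2*, an antiproliferative gene, had the largest ratio (3.29), with 7.71, 12.7, 9.86 and 25.4 CPM in sections 1 to 4. *Sgk1*, a stress- and glucocorticoid-induced kinase, ran the other way, with 225.6, 155.3, 138.5 and 113.0 CPM. The AP-1 genes *Jun* and *Jund* varied by 1.17-fold and 1.22-fold, less than any of the 10 genes.

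For the regional comparison, UMIs were added up in each section for its cortical, striatal and other spots, and all these sums were tested in 1 fit by edgeR's quasi-likelihood test with the section as a block. All 10 genes passed its filter on low counts. Values below are log2 fold changes ± SE with p-values adjusted by Benjamini-Hochberg over all genes tested. Shares of all genes are of the 14013 tested besides *Slc17a7* and *Ppp1r1b*. The 3 contrasts share spot groups and are not independent. Against the other spots, 8 of the 10 genes were higher in cortical spots and none was lower (background: 20.8% of all genes tested were higher, 22.4% lower and 43.2% called either way). The members' median log2 fold change was 0.81, that of all genes −0.02. In striatal spots, 6 were higher and 2 lower than in other spots (18.8% and 21.8% of all genes, 40.6% either way), with a median of 0.53. Between cortical and striatal spots, 4 were higher and 1 lower (22.6% and 23.2% of all genes, 45.8% either way), with a median of 0.11. The count of 5 of 10 in the last contrast is close to that background.

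The AP-1 factors *Fos*, *Fosb* and *Junb* encode leucine zipper proteins, the *Fos* members of which bind DNA as dimers with *Jun* members. *Fos* measured 27.1, 51.1, 72.2 and 75.4 CPM in the cortical spots of sections 1 to 4. In the striatal spots it measured 11.2, 23.5, 24.5 and 27.7 CPM. The other spots gave 15.3, 41.9, 37.4 and 56.6 CPM. In every section *Fos* was therefore highest in cortical and lowest in striatal spots, although the ranges over sections overlapped. It was 1.52-fold higher in cortical than in other spots (log2 0.61 ± 0.11, adjusted p = 0.000422) and fell by 0.64 ± 0.12 on the log2 scale from other to striatal spots (adjusted p = 0.000835). The cortical to striatal difference was 2.37-fold (1.24 ± 0.11, adjusted p = 2.93e-07).

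*Junb* showed another pattern, with cortical and striatal spots alike above the other spots. Its cortical spots held 52.8, 76.0, 82.0 and 126.7 CPM, and its striatal spots 55.2, 73.9, 86.3 and 107.9 CPM. The other spots held 27.7, 72.2, 57.8 and 78.7 CPM, with section 2 nearly level across the 3 groups. *Junb* was 1.45-fold higher in cortical spots (0.54 ± 0.12, adjusted p = 0.00221) and 1.52-fold higher in striatal spots (0.61 ± 0.12, adjusted p = 0.00114) than in other spots. Cortical and striatal spots were not distinguished (−0.07 ± 0.11, adjusted p = 0.641).

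*Fosb*, whose protein and its truncated splice form are linked to lasting changes in the striatum, was among the sparsest of the set, and the counts do not separate the isoforms. It measured 7.72, 18.1, 19.1 and 12.1 CPM in cortical spots and 8.68, 14.0, 19.6 and 9.44 CPM in striatal spots. In other spots it measured 4.64, 17.2, 12.5 and 7.38 CPM. Sections 2 and 3 were high and sections 1 and 4 low in all 3 groups. The cortical excess over other spots (0.49 ± 0.17, adjusted p = 0.0290) was lost without section 1, 3 or 4 (adjusted p = 0.0812, 0.143 and 0.0779, in a range of 0.00201 to 0.291 over the alternatives). That call was also lost with at least 5000 UMIs per spot, with both thresholds times 0.75 and without the block. The striatal excess (0.43 ± 0.18, adjusted p = 0.0630) was not called, but was without section 2 (0.81, adjusted p = 0.00155), without the filter on low counts (0.45, 0.0209) and with both thresholds raised (0.45, 0.0368).

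The EGR genes encode zinc finger factors, of which *Egr1* is also known as Zif268 and *Egr2*, or Krox20, is known as a regulator of myelination in Schwann cells. *Egr1* measured 252.9, 332.7, 348.3 and 361.8 CPM in cortical spots. In striatal spots it measured 168.6, 210.2, 297.0 and 196.0 CPM. The other spots held 70.6, 185.2, 160.5 and 134.3 CPM, below the cortical spots with no overlap. Such separation held for 2 of the 10 genes (*Egr1* and *Ier2*) in this contrast, beside 30.9% of all genes tested. *Egr1* was 2.46-fold higher in cortical (1.30 ± 0.14, adjusted p = 3.99e-06) and 1.76-fold higher in striatal (0.81 ± 0.14, adjusted p = 0.000343) than in other spots. Cortical spots also exceeded striatal spots by 1.40-fold (0.48 ± 0.13, adjusted p = 0.00810).

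*Egr2* was higher in both cortical and striatal spots than in other spots. Its cortical levels were 3.11, 13.1, 16.2 and 12.8 CPM and its striatal levels 4.90, 11.4, 19.4 and 10.5 CPM. The other spots held 1.13, 5.82, 8.62 and 7.07 CPM, from only 8, 24, 33 and 23 UMIs. Cortical spots were 2.10-fold (1.07 ± 0.19, adjusted p = 0.000312) and striatal spots 2.29-fold (1.20 ± 0.19, adjusted p = 0.000177) above other spots in the fit. The cortical to striatal difference was −0.13 ± 0.14 (adjusted p = 0.484).

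*Egr4* differed from its relatives in being the only 1 of the 10 genes called lower in cortical than in striatal spots. It measured 40.9, 83.7, 77.3 and 57.2 CPM in cortical spots and 57.2, 84.1, 119.9 and 74.7 CPM in striatal spots. The other spots gave 24.9, 85.1, 77.1 and 44.0 CPM. Section 2 was almost level across the 3 groups, and the striatal excess came from the remaining sections. The striatal level was 1.64-fold that of other spots (0.71 ± 0.15, adjusted p = 0.00139). The cortical level did not pass the test against other spots (0.23 ± 0.15, adjusted p = 0.214), and it passed without section 2 (0.38, adjusted p = 0.0164) and without the filter on low counts (0.27, adjusted p = 0.0287). The cortical to striatal value of −0.48 ± 0.13 (adjusted p = 0.00928) was no longer called without section 3 (−0.42, adjusted p = 0.0761, range over the alternatives 4.23e-05 to 0.273).

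*Nr4a1* encodes an orphan nuclear receptor, and *Npas4* a bHLH-PAS factor that responds to calcium entry in neurons. *Nr4a1* measured 57.4, 95.9, 121.9 and 146.0 CPM in cortical spots. Striatal spots held 53.0, 84.1, 119.9 and 85.0 CPM, and other spots 26.9, 51.6, 65.3 and 67.9 CPM. The other spots were lowest in every section. Relative to them, *Nr4a1* was 2.01-fold higher in cortical (1.01 ± 0.09, adjusted p = 9.39e-07) and 1.79-fold higher in striatal spots (0.84 ± 0.10, adjusted p = 8.00e-06). Cortical and striatal spots differed by 0.17 ± 0.08 (adjusted p = 0.118), with section 4 (0.78) above the other sections (0.02 to 0.19), and the value was called under total-UMI scaling (0.27, adjusted p = 0.0335) and without the filter on low counts (0.19, adjusted p = 0.0452).

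The 3 fitted contrasts of *Npas4* all lay within 0.45 of 0. Its cortical spots held 11.9, 17.8, 8.44 and 18.2 CPM, its striatal spots 9.80, 17.3, 12.1 and 16.2 CPM, and its other spots 6.76, 13.6, 12.02 and 11.99 CPM. In section 3 the cortical spots were the lowest of the 3 groups. The cortical excess over other spots missed the threshold (0.35 ± 0.16, adjusted p = 0.0940), but passed it without section 3 (0.58, adjusted p = 0.00708) and without the filter on low counts (0.39, adjusted p = 0.0301). The striatal excess (0.45 ± 0.17, adjusted p = 0.0443) did not survive the removal of section 1 (adjusted p = 0.155), 2 (0.0852) or 4 (0.129), nor total-UMI scaling (0.129), DESeq2 (0.0638) or the removal of choroid plexus-marker spots (0.0683).

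*Arc* encodes a cytoskeleton-associated protein that acts at synapses in AMPA receptor trafficking. In cortical spots it measured 72.9, 136.2, 142.8 and 189.5 CPM. Striatal spots held 36.7, 66.8, 65.5 and 74.7 CPM, and other spots 25.05, 88.0, 65.1 and 48.3 CPM. Every section had its highest *Arc* level in cortical spots. The excess was 2.42-fold over other spots (1.27 ± 0.16, adjusted p = 1.32e-05) and 2.04-fold over striatal spots (1.03 ± 0.15, adjusted p = 4.23e-05). Striatal and other spots differed by 0.24 ± 0.16 (adjusted p = 0.255), with section 2 (−0.40) opposite to sections 1 and 4 (0.55 and 0.63), and the striatal excess was called without section 2 (0.53, adjusted p = 0.00578).

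*Ier2*, a primary response gene for a nuclear protein, had the largest cortical to striatal difference of the set. Cortical spots held 13.5, 22.6, 21.1 and 42.8 CPM, with section 4 far above the rest. Striatal spots held 4.56, 7.20, 6.87 and 8.60 CPM, and other spots 6.61, 10.9, 13.1 and 11.7 CPM. The cortical range overlapped neither of the others. *Ier2* was 3.23-fold higher in cortical than in striatal spots (1.69 ± 0.14, adjusted p = 2.07e-07), and it was the 1 gene of 10 whose ranges did not overlap there, beside 35.0% of all genes. The excess over other spots was 2.27-fold (1.18 ± 0.15, adjusted p = 1.80e-05). From other to striatal spots *Ier2* fell by 0.51 ± 0.18 on the log2 scale (adjusted p = 0.0364), a call lost without section 1 (adjusted p = 0.0898), 2 (0.113) or 3 (0.165). That call was also lost with both thresholds times 0.75 and without the block.

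**Figure D2:**
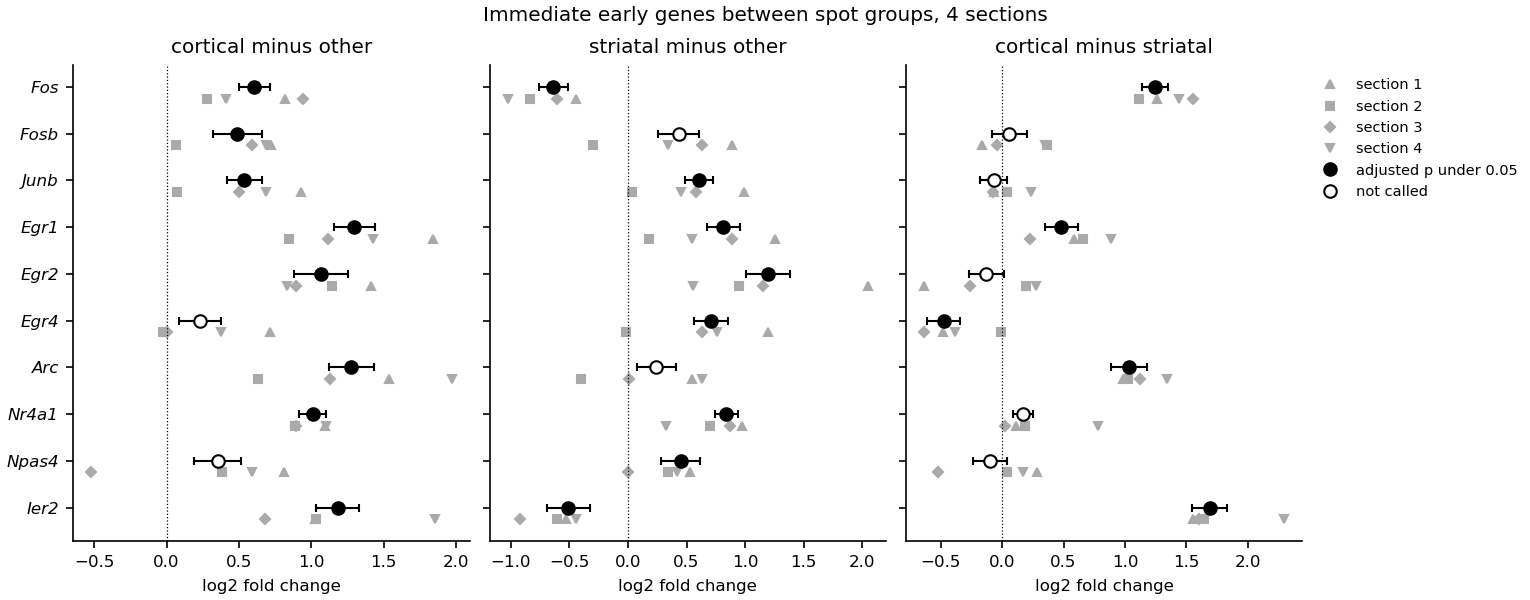
Log2 fold change (horizontal axis) of each gene between spot groups, from edgeR with the section as a block. Circles with bars are the fitted value ± SE (filled where the adjusted p is under 0.05), and grey symbols are the ratio of CPM within each of the 4 sections. *Fos* and *Ier2* lie to the right of 0 against other spots in cortical spots and to the left in striatal spots. The fitted values of all the other genes lie to the right in both, and those of *Junb*, *Egr1*, *Egr2* and *Nr4a1* are filled in both.

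None of the 10 genes had striatal and other spots that did not overlap (29.7% of all genes). Every member's call in these contrasts was made with the section as a block. Without the block, calls fell from 8 to 4 (*Egr1*, *Arc*, *Nr4a1* and *Ier2* remained) in cortical against other spots, from 8 to 1 (*Egr1*) in striatal against other spots, and from 5 to 3 (*Fos*, *Arc* and *Ier2*) in cortical against striatal spots. The share of all genes called without the block is not given for these contrasts, so these counts have no background beside them. Scaling by total UMIs shifted the median of all genes by −0.11 in striatal against other spots and by 0.10 in cortical against striatal spots. The share of calls that were higher then moved from 46.3% to 29.3% and from 49.3% to 65.1%, while the called members kept their direction under both scalings.

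The other activity-regulated genes showed both directions. Of 47 tested, 28 were higher and 7 lower in cortical than in other spots (median log2 fold change 0.48), beside 20.8% and 22.4% of all genes. In striatal against other spots 17 were higher and 9 lower (−0.05), beside 18.8% and 21.8% of all genes. Between cortical and striatal spots 23 were higher and 9 lower (0.24), beside 22.6% and 23.2%. The counts of lower genes did not exceed the shares of all genes. The largest cortical excesses over other spots were those of the neurotrophin *Bdnf* (2.77 ± 0.17, adjusted p = 1.40e-08), of *Nrn1* for the neurite outgrowth protein neuritin (2.48 ± 0.10, 6.29e-10), of *Ptgs2* for cyclooxygenase-2 (2.34 ± 0.31, 3.01e-05), of the nuclear receptor gene *Nr4a2* (2.18 ± 0.14, 3.78e-08) and of *Klf10* (1.68 ± 0.15, 7.64e-07). *Nr4a2* also reached a cortical to striatal value of 2.49 ± 0.13, beside 0.17 ± 0.08 for its relative *Nr4a1*. The largest cortical deficits against other spots were those of *Gadd45g* (−0.74 ± 0.09), *Scg2* (−0.72 ± 0.16), *Rgs2* (−0.71 ± 0.12), *Zfp36* (−0.70 ± 0.22) and *Sgk1* (−0.62 ± 0.08). In striatal against other spots the largest excesses were those of the kinase gene *Plk2* (1.59 ± 0.10), *Inhba* for the activin A subunit (1.58 ± 0.29), the postsynaptic scaffold gene *Homer1* (1.11 ± 0.14), *Egr3* (1.08 ± 0.15) and the phosphatase gene *Dusp14* (1.04 ± 0.14). The largest striatal deficits were those of *Dusp4* (−1.86 ± 0.48), *Nrn1* (−0.93 ± 0.12), *Plk3* (−0.83 ± 0.15), *Btg2* (−0.73 ± 0.13) and *Sik1* (−0.73 ± 0.24). That of *Dusp4* rested on only 14 striatal and 31 other-spot UMIs, and its levels overlapped between the groups. *Egr3*, like *Egr2*, was higher in both cortical (0.86 ± 0.15) and striatal than in other spots.

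Layers of the cortex were compared next, because superficial and deep neurons project to different targets. Cortical spots with at least 3 of 7 hippocampal markers detected were left out. The rest were ranked by 7 upper-layer markers such as *Cux2* against 7 deep-layer markers such as *Foxp2*. The top and bottom tertile of each section were summed (145, 369, 325 and 238 spots each). Only 1 of the 10 genes, *Egr2*, was called (8.37% of 12334 genes were higher and 7.60% lower in upper layers, 16.0% either way). *Egr2* measured 3.88, 18.1, 19.7 and 12.9 CPM in the upper-layer spots and 3.23, 8.33, 12.9 and 12.3 CPM in the deep-layer spots of sections 1 to 4. The excess was clear in sections 2 and 3 and small in sections 1 and 4, and it rested on 296 and 145 UMIs. The fitted value was 0.64 ± 0.17 (adjusted p = 0.00785). The call was lost with DESeq2 (0.57, adjusted p = 0.380), without the block (0.450), without section 2 (0.290) and without section 3 (0.0603).

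The remaining genes ranged from −0.34 (*Npas4*, adjusted p = 0.179) to 0.14 (*Egr4*, 0.277), and *Arc* was at −0.16 ± 0.06 (0.0791). Which genes were called changed with the sections used: *Arc* was called without section 1 (−0.19, adjusted p = 0.0344), *Npas4* without section 2 (−0.69, 0.0153), and *Fos* without section 3 (−0.29, 0.0420) and with narrower layer groups (−0.30, 0.0411). For all 10 genes the levels of the 4 sections overlapped between layers, whereas 10.7% of all genes did not overlap. Mature oligodendrocyte markers were lower in upper-layer spots, 6 of 6 with a median of −1.12. So were 7 of 8 striatal projection neuron markers (−0.48). Between cortical and striatal spots, 3 of the 7 deep-layer markers were higher and 4 lower in cortical spots (median −1.03). The deep-layer spots may thus hold striatal RNA as well. The part of these differences in the values of the 10 genes was not tested. Of 46 other activity-regulated genes, 7 were higher and 10 lower in upper-layer spots, beside 8.37% and 7.60% of all genes. *Bhlhe40* (0.80 ± 0.06), *Dusp14* (0.64 ± 0.07) and *Nrn1* (0.47 ± 0.07) were higher. *Nr4a2* (−1.60 ± 0.12), the matricellular gene *Ccn1* (−1.24 ± 0.24) and *Sgk1* (−0.57 ± 0.06) were lower.

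Since the study is about OPCs, the genes were also compared by OPC marker content. Spots were ranked within a section by how far 8 OPC markers, among them *Pdgfra* and *Cspg4*, exceeded the UMIs that the depth of the spot predicts, and the top 10% were set against the rest (153, 235, 229 and 143 spots against 1384, 2123, 2065 and 1288). These spots are not the regions outlined in the study. Of the 10 genes, 3 were lower in OPC-marker-high spots and none was higher (3.04% and 2.78% of 14258 genes, 5.81% either way). *Arc* measured 23.5, 83.0, 82.0 and 84.2 CPM in these spots and 46.7, 107.4, 108.1 and 142.7 CPM in the rest. *Egr1* measured 118.2, 200.4, 254.5 and 209.3 CPM against 170.2, 277.8, 304.6 and 289.8 CPM. *Fos* measured 11.3, 35.1, 46.3 and 41.5 CPM against 18.1, 40.4, 52.1 and 62.4 CPM. All 3 genes were lower in every section, although the ranges over sections overlapped for each of the 10 genes (3.91% of all genes did not overlap).

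In this fit *Arc* fell by 0.56 ± 0.08 (adjusted p = 1.35e-05), *Egr1* by 0.43 ± 0.05 (adjusted p = 1.78e-06) and *Fos* by 0.34 ± 0.09 (adjusted p = 0.0243) on the log2 scale. The OPC-marker-high spots also held fewer cortical spots, 14.4% to 37.4% against 30.0% to 51.7% of the rest, and 6 of 8 cortical glutamatergic markers were lower in them (median −0.53). They held more other spots, 21.7% to 64.7% against 13.7% to 32.0%. Of the 6 genes made by most neurons, 4 were lower in them and 0 higher (−0.21). All 6 mature oligodendrocyte markers were higher (0.39). In a split of cortical spots only, *Arc* (−0.49, adjusted p = 5.76e-06) and *Egr1* (−0.31, 0.000264) were also called lower, whereas *Fos* was not called (−0.17, 0.567). The count of all genes called in that fit is given in the last section, but not the number tested. These calls therefore have no background share beside them. Marker levels of the groups in that split are not given, and the part of their makeup in these values was not tested. *Fos* also lost its call without section 1 (adjusted p = 0.0504), without section 4 (0.216) and with DESeq2 (0.144). *Junb* (−0.25, adjusted p = 0.0604) gained a call without section 3 (−0.39, 0.00377), with at least 5000 UMIs per spot (−0.26, 0.0470) and without the filter on low counts (−0.29, 0.00260). Without the section as a block edgeR called 0 of the 10 genes, and 0 had an unadjusted p under 0.05.

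Of 48 other activity-regulated genes, 2 were higher and 9 lower in OPC-marker-high spots, beside 2.78% and 3.04% of all genes. Those lower included *Nrn1* (−0.68 ± 0.06), *Pcsk1* (−0.52 ± 0.14), which encodes a prohormone convertase, *Ier5* (−0.49 ± 0.06), *Dusp14* (−0.36 ± 0.08) and *Bhlhe40* (−0.35 ± 0.06). *Sgk1* was higher (0.28 ± 0.05).

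**Figure D3:**
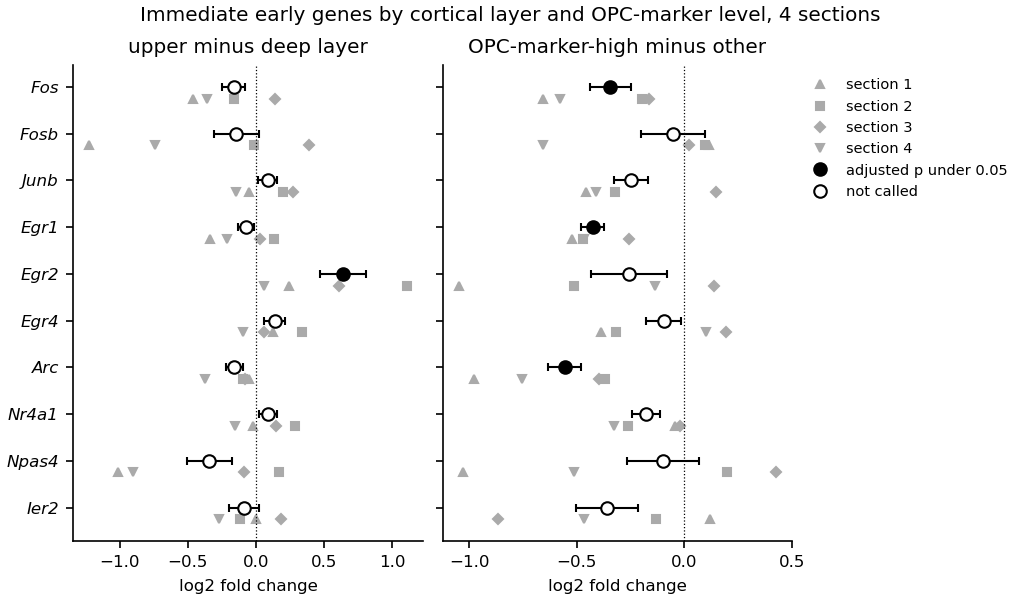
Log2 fold change (horizontal axis) of each gene between upper-layer and deep-layer cortical spots (left) and between OPC-marker-high and the other spots (right). Circles with bars are the fitted value ± SE, filled where the adjusted p is under 0.05, and grey symbols are the ratio within each section. *Egr2* alone is filled on the left, and *Fos*, *Egr1* and *Arc* on the right, all 3 with every section below 0.

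Most spots held few of these transcripts. In section 1, 4.49% of spots had a UMI of *Egr2*, and in section 2, 88.6% had a UMI of *Egr1*, these being the extremes. The median was 0 UMIs per spot in every section for *Fos*, *Fosb*, *Egr2*, *Npas4* and *Ier2*. The richest single spot held 41 UMIs of *Egr1*. The variance between spots of 1 spot group was 1.18 times (*Fosb*) to 1.90 times (*Egr1*) that of Poisson counting on average. The median was 1.06 over genes with at least 0.1 UMI per spot in every section, which were not matched to the members in level.

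The 10 genes tended to be high in the same spots. For each spot the excess of each gene over the number predicted from its total UMIs and spot group was divided by the square root of that number, and Pearson's r was taken across the spots of a section for the 45 pairs. The mean r over sections was above 0 for every pair, from 0.03 (*Fosb* with *Ier2*) to 0.34 (*Egr1* with *Nr4a1*), with a median of 0.15. In 40 of the 45 pairs r was above 0 in all 4 sections. These correlations describe spots that share a library and differ in depth, and no test was made of them. They were not corrected for counting error, which lowers r most for sparse genes. The median r was 0.07, 0.20, 0.10 and 0.22 in sections 1 to 4, lowest in section 1, where the levels were also lowest. Spots with at least 5000 UMIs were also thinned to 5000 UMIs each, and there r was taken without regard to spot group. The median was then 0.07, and 28 of 45 pairs were above 0 in all sections. Without thinning and without regard to spot group, all spots gave a median of 0.155, with 41 of 45 pairs above 0 in all sections.

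*Egr1* with *Arc* (r = 0.32), *Junb* with *Nr4a1* (0.28) and *Egr4* with *Nr4a1* (0.27) followed the highest pair. In cortical spots alone, *Egr1* with *Arc* came first (0.41, from 0.28 in section 3 to 0.51 in sections 2 and 4). *Ier2*, which had the strongest regional contrast, had the weakest joint variation on average over sections, with a mean r of 0.03 to 0.11 to each of the others. Sections differed in this: its r with *Egr1* ran from −0.009 in section 1 to 0.27 in section 4. Among all genes with at least 0.1 UMI per spot in every section (9149 other genes and 8 of the members), the gene most like each member was in all 10 cases another member.

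**Figure D4:**
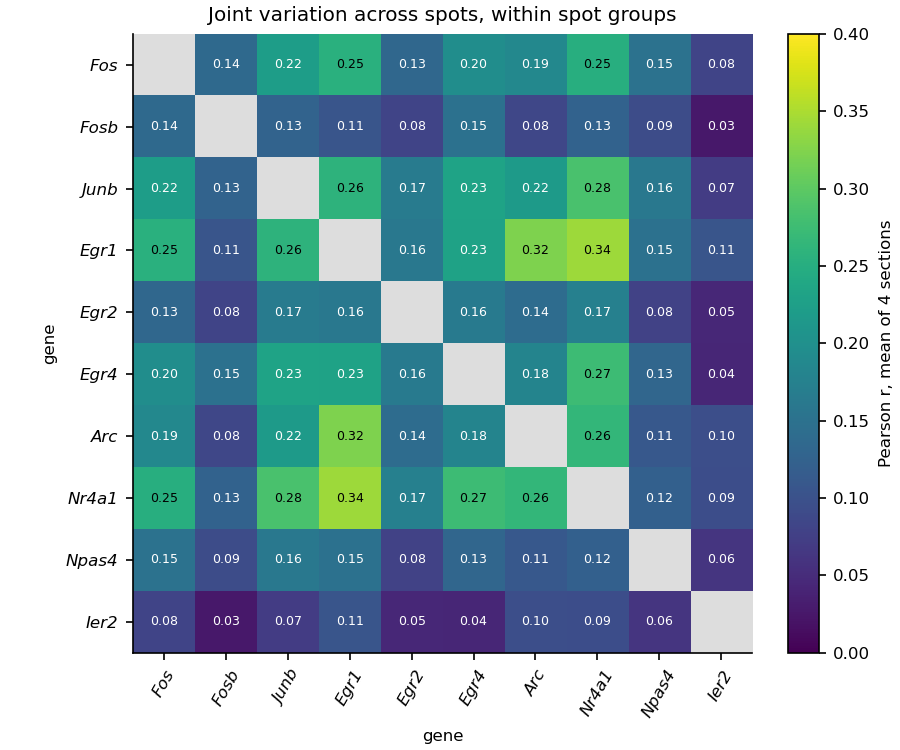
Pearson r across spots for each pair of the 10 genes (rows and columns), after total UMIs and spot group were accounted for. Colour and printed value are the mean over the 4 sections, from 0.03 to 0.34. The 4 brightest cells are *Egr1* with *Nr4a1*, *Egr1* with *Arc*, *Junb* with *Nr4a1* and *Egr4* with *Nr4a1*, and the row of *Ier2* is the darkest.

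The genes most like the set were then named by their r with the summed 10 genes. Members with many UMIs weigh most in that sum (mean of 254.8 CPM for *Egr1*, 10.5 CPM for *Egr2*). Sparse genes have a lower r through counting error, so the order of genes also depends on their counts. Among the 9149 other genes the median r was 0.01, and 103 of them (1.13%) reached 0.1. Each member, set against the sum of the other 9, gave 0.13 (*Ier2*) to 0.46 (*Egr1* and *Nr4a1*), with a median of 0.35. The 10 most alike were *Egr3* (0.31), *Dusp14* (0.24), *Homer1* (0.21), *Dusp1* (0.21), *Nr4a3* (0.21), *Ier5* (0.20), *Fosl2* (0.19), *Dkk3* (0.18), *1110008P14Rik* (0.18) and *Hpca* (0.18). The first 7 belong to the list of other activity-regulated genes, of which 17 of 37 reached 0.1, with a median of 0.09. That list was chosen with earlier results of these data known, so its place here is not independent of them. *Dkk3*, a secreted Dickkopf family protein, *Hpca*, a neuronal calcium sensor, and *1110008P14Rik* were not on that list.

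**Figure D5:**
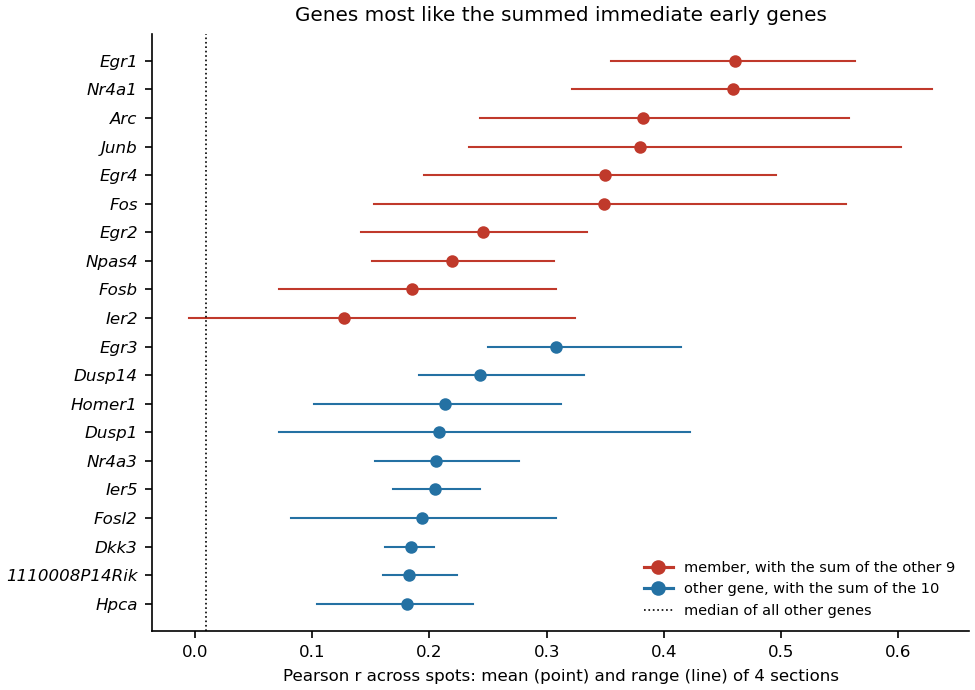
Pearson r across spots (horizontal axis) of each member with the sum of the other 9 genes (red) and of the 10 most alike other genes with the sum of the 10 (blue). Points are means and lines the range over 4 sections, and the dotted line is the median of all other genes (0.01). *Egr3* (0.31) lies to the right of *Egr2*, *Npas4*, *Fosb* and *Ier2*. These 4 had the fewest UMIs of the 10 members, and r was not corrected for counting error, which lowers it most for sparse genes.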

How the data were processed

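The authors prepared Visium libraries from 10-µm sections, ran Space Ranger (version 1.3.1 per the file headers, build mm10 in the submitters' processing notes) and deposited its UMI counts for each section without normalization. Spot positions were not used here. Section numbers follow the order of deposition and only name the sections.

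Thresholds on *Slc17a7* and *Ppp1r1b* were set by Otsu's method on the square root of the rate, with sections weighted equally. The sums were tested with edgeR 4.0.16 in R 4.3.3 (TMM, filterByExpr, quasi-likelihood F test, Benjamini-Hochberg adjustment over all genes tested) with the section as a block. Spot groups of 1 section are parts of 1 piece of tissue and so are paired, and deviations from the group means within a section had r of 0.302 to 0.534 over genes. Genes that define a comparison were left out of its counts of calls. SE was taken as the fold change on the log2 scale over the root of F. The procedure was tested on simulated data in which genes changed by 1 on the log2 scale. It called 174 of 196 changed genes (cortical against other), 188 of 195 (layers) and 167 of 199 (OPC). Unchanged genes called numbered 8, 7 and 8. The simulated counts held no differences between sections, unlike the data, so the use of the block was not tested by them. Levels of a gene are compared between samples and not with levels of another gene.

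The members, the lists, the markers and the promoter motifs were chosen with earlier results of these data known. Besides the 10 members, genes are named where they are at most the 5 largest changes each way in the fixed list of other activity-regulated genes (adjusted p under 0.05, the same direction in 4 sections), or among the 10 most like the members. *Jun*, *Jund*, *Btg2* and *Sgk1*, where they stand outside this rule, were named after their values were seen. Alternatives were total-UMI scaling, DESeq2 1.42.0, no filter, no block, at least 5000 UMIs per spot, and thresholds times 0.75 and 1.25. Others left out cortical spots with at least 3 hippocampal markers, spots with at least 3 choroid plexus markers, or each section in turn. Other score limits were also used. Promoters and gene coordinates are from RefSeq (GRCm38.p6). Intervals cover counting error only. Figures were drawn with matplotlib 3.10.9.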

Additional observations from a re-analysis of the deposited data

Results flagged for a closer look

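Of 90 sets of 4 section values (levels and within-section log2 ratios of the 10 genes), 3 had a section far from the rest by Dixon's test, and chance gives about 1 in 20, or 4.5. The log2 ratio of *Ier2* between cortical and striatal spots was 2.3 in section 4 and 1.56 to 1.64 in the others. The log2 ratio of *Arc* between upper-layer and deep-layer spots was −0.376 in section 4 and −0.0973 to −0.0542 in the others. The log2 ratio of *Fosb* between OPC-marker-high and other spots was −0.658 in section 4 and 0.0203 to 0.116 in the others. All 3 values came from section 4.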

How the results depend on the processing

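Over 600 member-by-alternative values, 531 kept their direction and their side of the threshold, 40 lost the call, 20 gained it and 9 changed sign, none of the 9 having been called. Without the replicate block, the members called fell to 4, 1 and 3 in the regional contrasts (cortical against other, striatal against other, cortical against striatal) and to 0 in the layer and OPC comparisons (0 at an unadjusted p under 0.05 by edgeR in both). These 17 losses make up part of the 40, and the direction of the called members did not change. In the layer comparison DESeq2 called 0 members (0 at an unadjusted p under 0.05, against 3 by edgeR), and narrower layer groups gave 2. In the OPC comparison no filter gave 5 members and the top 20% of spots 5. With each section left out, the members called were 7 to 9, 6 to 8, 4 to 5, 1 to 2 and 2 to 4 in the order above, and between layers the genes called were not the same ones. These alternative fits have no background share beside the members' counts, and for some of them only a count of all genes called is given below. The summed level of 687.4 CPM ranged from 636.9 to 786.4, and the median pairwise r of 0.149 from 0.126 to 0.166. Thinned spots gave 0.0678 without regard to spot group, beside 0.155 for all spots without thinning, also without regard to spot group. Genes called overall fell from 1969 to 855 (DESeq2) and 835 (no block) between layers. Between OPC-marker-high and other spots they fell from 829 to 328 (DESeq2), 8 (no block), 496 (without section 2), 528 (without section 3) and 185 (cortical spots only). Log2 fold changes turned sign between cortical and striatal spots for *Junb* (0.035) and *Npas4* (0.0063) under total-UMI scaling. With each section left out, they ranged there from −0.070 to 0.16 for *Fosb* and from −0.14 to 0.017 for *Npas4*. In the OPC comparison they ranged from −0.17 to 0.050 for *Fosb*, from −0.22 to 0.0031 for *Egr4* and from −0.34 to 0.063 for *Npas4*, and *Fosb* was at 0.16 in cortical spots only. The cause of these changes was not tested. Depth limits *Egr2*, *Fosb*, *Npas4* and *Ier2* most.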
